A study of Mus musculus with 8 samples.

Results

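The comparison described here is the loss of RORγt in CD4 T cells cultured toward the Th17 fate with the solvent DMSO alone, read as the 2 arrays of RORγt-deficient cells minus the 2 arrays of wildtype cells. These 4 arrays are part of a series of 8, whose other 4 hold the same pair of genotypes cultured with digoxin, and 18193 genes were tested on all of them. The cells were FACS-sorted naive CD4 T cells from C57BL/6 mice, activated with CD3 and CD28 antibodies in RPMI-based medium for 48 hours under a Th17 condition, and their total RNA was read on Affymetrix Mouse Genome 430 2.0 arrays. The groups were wildtype with DMSO, RORγt-deficient with DMSO, wildtype with digoxin and RORγt-deficient with digoxin, with 2 arrays each. The sources used here do not give the allele behind the deficiency, the age and sex of the animals, the cytokines in the medium or the dose of digoxin. Replicates are titled biological, but nothing says that separate mice or cultures were used, and the p-values therefore reflect only array-to-array spread, part of which may be technical.

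RORγt is a nuclear receptor that directs the differentiation of naive CD4 T cells into Th17 cells, helper cells known for secreting interleukin 17. It binds DNA at the ROR response element, an AGGTCA or GGGTCA core preceded by an A/T-rich stretch, and activates the genes of the interleukin 17 cytokines and of receptors that hold the Th17 fate in place. Digoxin, a cardiac glycoside, is the compound whose action on RORγt the series was designed to examine. Transcripts of RORγt itself were not analysed here, and the genotype of each array rests on its label alone.

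Deposited values are log2 values centred, probe set by probe set, on the wildtype DMSO pair. That pair averages 0 for every gene, and a value gives a change, not a level. Differences between groups are given as log2 values ± the standard error of limma's fit with 2 arrays a group. A gene was called when its p-value, adjusted by the Benjamini-Hochberg method over the 18193 genes, was under 0.05. The words rose and fell are kept for called genes, and higher or lower means higher or lower in RORγt-deficient cells.

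In DMSO, 191 genes were called, or 1.05% of those tested, of which 51 rose (0.28%) and 140 fell (0.77%). The cytokine gene Il17a and the pair Iyd and Ppp1r14c fell most, and 47 genes of mitosis and 6 amino acid stress genes were among the other falls. The rises were led by Plac8, Slfn1, S100a6, Il10 and Klrd1. At least a 2-fold change was seen in 47 of the called genes, 11 of them rises and 36 falls. On the DMSO arrays the groups did not overlap for any of the 191 called genes, and over all genes they were apart for 20.1% in the higher and 21.7% in the lower direction. The smallest called rise was 0.56 and the smallest called fall -0.53, and the median over all genes was 0.00.

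**Figure D1:**
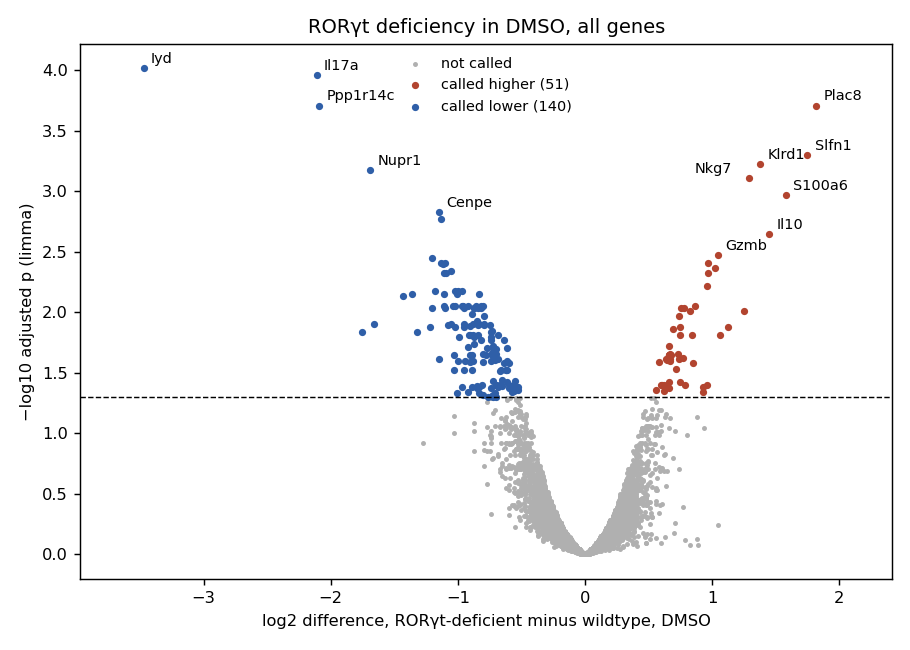
Each point is 1 of 18193 genes, with the log2 difference of RORγt-deficient from wildtype cells in DMSO on the x axis and the negative log10 of limma's adjusted p on the y axis. The dashed line marks an adjusted p of 0.05, and the 140 called falls lie to the left of the 51 called rises.

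Promoter sequences are printed for 8 called genes because the falls gathered in groups whose known regulators read short motifs near the start of transcription. All come from RefSeq on GRCm38.p6 and hold the 250 bases before the start, with matches in capitals. Il17a (chr1:20730655-20730904, plus strand) is shown for its AGGTCA core, present here on the reverse strand as TGACCT. Prr29 (chr11:106374576-106374825, plus strand) and S100a4 (chr3:90603520-90603769, plus strand) are shown for a full ROR response element in the window. No other of the 154 called genes with a listed promoter held it, at the first listed start of each gene.
Il17a: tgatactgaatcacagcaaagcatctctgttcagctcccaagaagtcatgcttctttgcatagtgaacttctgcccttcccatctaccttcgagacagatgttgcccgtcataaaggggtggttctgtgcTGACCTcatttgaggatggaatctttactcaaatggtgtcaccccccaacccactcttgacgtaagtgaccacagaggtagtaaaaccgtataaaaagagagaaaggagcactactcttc
Prr29: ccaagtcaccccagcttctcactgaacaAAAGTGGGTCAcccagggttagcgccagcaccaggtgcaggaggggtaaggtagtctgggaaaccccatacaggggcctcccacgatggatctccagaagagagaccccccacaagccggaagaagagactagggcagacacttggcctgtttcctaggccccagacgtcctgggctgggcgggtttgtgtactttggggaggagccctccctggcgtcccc
S100a4: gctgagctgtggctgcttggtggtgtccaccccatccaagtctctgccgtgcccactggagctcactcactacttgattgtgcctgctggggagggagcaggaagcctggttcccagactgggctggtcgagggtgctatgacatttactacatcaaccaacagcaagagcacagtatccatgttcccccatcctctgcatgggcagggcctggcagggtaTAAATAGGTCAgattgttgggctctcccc
Among called falls with a listed promoter, 1 of 118 held the full element within 250 bases before and 50 after the start, as did 1 of 36 called rises and 0.244% of the 14368 tested genes with a promoter. The AGGTCA core alone, searched on both strands, overlaps the full element of S100a4 but not that of Prr29, whose core is GGGTCA. It was found in 13 of 118 called falls (11%), 5.56% of called rises and 13.9% of tested genes.

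Ccnb2 (chr9:70421555-70421804, minus strand), Mki67 (chr7:135716380-135716629, minus strand) and Cdc20 (chr4:118437344-118437593, minus strand) are shown as mitosis genes that fell together. They hold both CCAAT, a motif read by the factor NF-Y, and TTTGAA, the core of the cell cycle homology region read by the MuvB complexes. The printed TTTGAA begins 167 bases before the start in Ccnb2, 116 and 98 in Mki67 and 18 in Cdc20. The window of Ccnb2 holds 2 matches, the other past the printed bases.
Ccnb2: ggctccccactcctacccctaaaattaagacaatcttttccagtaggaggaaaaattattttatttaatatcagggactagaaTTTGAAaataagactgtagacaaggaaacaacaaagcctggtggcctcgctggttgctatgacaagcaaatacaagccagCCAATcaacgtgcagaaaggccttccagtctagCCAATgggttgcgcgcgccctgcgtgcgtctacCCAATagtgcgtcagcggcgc
Mki67: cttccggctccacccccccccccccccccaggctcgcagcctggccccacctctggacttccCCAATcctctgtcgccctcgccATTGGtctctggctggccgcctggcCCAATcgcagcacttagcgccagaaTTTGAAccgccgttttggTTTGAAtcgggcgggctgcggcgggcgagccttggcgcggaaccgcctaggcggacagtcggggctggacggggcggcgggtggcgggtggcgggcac
Cdc20: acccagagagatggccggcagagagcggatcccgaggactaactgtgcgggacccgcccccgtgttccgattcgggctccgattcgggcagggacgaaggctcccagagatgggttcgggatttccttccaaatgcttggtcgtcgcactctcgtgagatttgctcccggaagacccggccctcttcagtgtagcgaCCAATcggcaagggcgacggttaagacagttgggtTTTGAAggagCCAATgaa
TTTGAA on either strand was found in 63.4% of the 41 called falls of the mitosis lists with a promoter, in 21.1% of 57 called falls outside the cell cycle lists, in 13.9% of 36 called rises and in 13.3% of tested genes. Within 50 bases of the start the shares were 58.5%, 12.3%, 0.0% and 3.33%. CCAAT was found in 73.2%, 56.1%, 50% and 38.2% of the same sets. Over all 76 promoters of the mitosis lists, called or not, the shares were 56.6% for TTTGAA, 48.7% for TTTGAA within 50 bases of the start and 63.2% for CCAAT. These shares describe letters in a window and carry no test. The falls outside the cell cycle lists still held genes of cell division, such as Prr11, which carries TTTGAA.

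Chac1 (chr2:119350992-119351241, plus strand) and Nupr1 (chr7:126625471-126625720, minus strand) are shown as amino acid stress genes that fell and hold TGATGNAA, a composite motif read by ATF4 with C/EBP partners, here on the reverse strand.
Chac1: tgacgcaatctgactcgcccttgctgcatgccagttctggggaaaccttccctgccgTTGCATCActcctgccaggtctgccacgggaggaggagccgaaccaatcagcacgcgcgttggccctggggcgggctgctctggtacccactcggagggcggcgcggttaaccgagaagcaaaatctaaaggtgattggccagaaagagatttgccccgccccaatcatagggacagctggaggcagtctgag
Nupr1: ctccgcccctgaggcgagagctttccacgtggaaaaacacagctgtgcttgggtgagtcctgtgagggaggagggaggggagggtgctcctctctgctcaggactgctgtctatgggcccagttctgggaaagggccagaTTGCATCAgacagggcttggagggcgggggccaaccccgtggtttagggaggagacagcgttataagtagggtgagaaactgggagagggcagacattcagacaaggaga
TGATGNAA was found in 21.7% of the 23 promoters of the ATF4 list and in 2.76% of tested genes.

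Among Th17 cytokines, receptors and surface effectors, 3 of 13 measured genes fell and none rose, with a median of -0.30 over the list. Over all genes 0.77% fell, the share to set beside each count of falls below. The lists were chosen with earlier results of these data known, so no count of rises or falls in a list tests enrichment. Il17a, the cytokine that defines the lineage, read -0.02 and 0.02 on the wildtype arrays and -2.01 and -2.21 on the deficient arrays. The deficient arrays lay far below both wildtype arrays, a 4.31-fold fall (-2.11 ± 0.12, adjusted p = 0.00011 by limma). Furin, a protease that matures secreted proteins, read -0.01 and 0.01 against -0.73 and -1.27 (-1.0 ± 0.17, adjusted p = 0.0252 by limma). Ramp1, a coreceptor for the neuropeptide CGRP, read 0.03 and -0.03 against -0.60 and -0.50 (-0.55 ± 0.10, adjusted p = 0.0368 by limma). The 2 other probe sets of Ramp1 were at 0.16 and 0.17, opposite in sign to the one used.

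Other defining Th17 genes did not pass the threshold. The chemokine receptor Ccr6 read -0.14 and 0.14 on the wildtype arrays and -0.57 and -0.85 on the deficient arrays (-0.71 ± 0.16, adjusted p = 0.087 by limma), so its groups did not overlap. Its ligand Ccl20 was at -0.30 ± 0.14 and the interleukin 1 receptor Il1r1 at -0.19 ± 0.11. Among 17 Th17 transcription factors none was called and the median was 0.01. Rora, the related receptor that shares the RORγt binding site, was at 0.17 ± 0.14, Maf at 0.62 ± 0.18 and Fosl2 at -0.56 ± 0.16.

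Iyd, the enzyme that recovers iodide from iodotyrosines, had the largest fall of all genes. It read -0.17 and 0.17 on the wildtype arrays and -3.29 and -3.64 on the deficient arrays, an 11.1-fold fall (-3.47 ± 0.19, adjusted p = 9.67e-05 by limma). Ppp1r14c, an inhibitor of protein phosphatase 1, read -0.12 and 0.12 against -1.97 and -2.21, a 4.26-fold fall (-2.09 ± 0.14, adjusted p = 0.000197 by limma). No measured gene lies between Ppp1r14c and Iyd in the RefSeq order.

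Several other large falls stand outside the mitosis groups. Gcnt2, which branches polylactosamine chains, read -0.06 and 0.06 against -1.29 and -1.57 (-1.43 ± 0.18), and its 7 other probe sets ranged from -1.45 to 0.01. Prr29, a proline-rich protein gene, read -0.09 and 0.09 against -1.18 and -1.55 (-1.36 ± 0.17). Nebl, an actin-binding protein, fell by 1.22 ± 0.18 and Gap43, a membrane protein best known from growing axons, fell by 1.11 ± 0.13. Igfbp7, a secreted binding protein, fell by 1.09 ± 0.12, and its 2 other probe sets were at -0.21 and 0.19. In the clock gene list 1 of 15 fell, the repressor Nr1d2, at 0.08 and -0.08 on the wildtype arrays and -0.69 and -0.71 on the deficient arrays (-0.70 ± 0.11). Its promoter window held the AGGTCA core but no full ROR response element. Nr1d1 was at -0.40 ± 0.12 and Dbp at -0.45 ± 0.11, neither called.

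**Figure D2:**
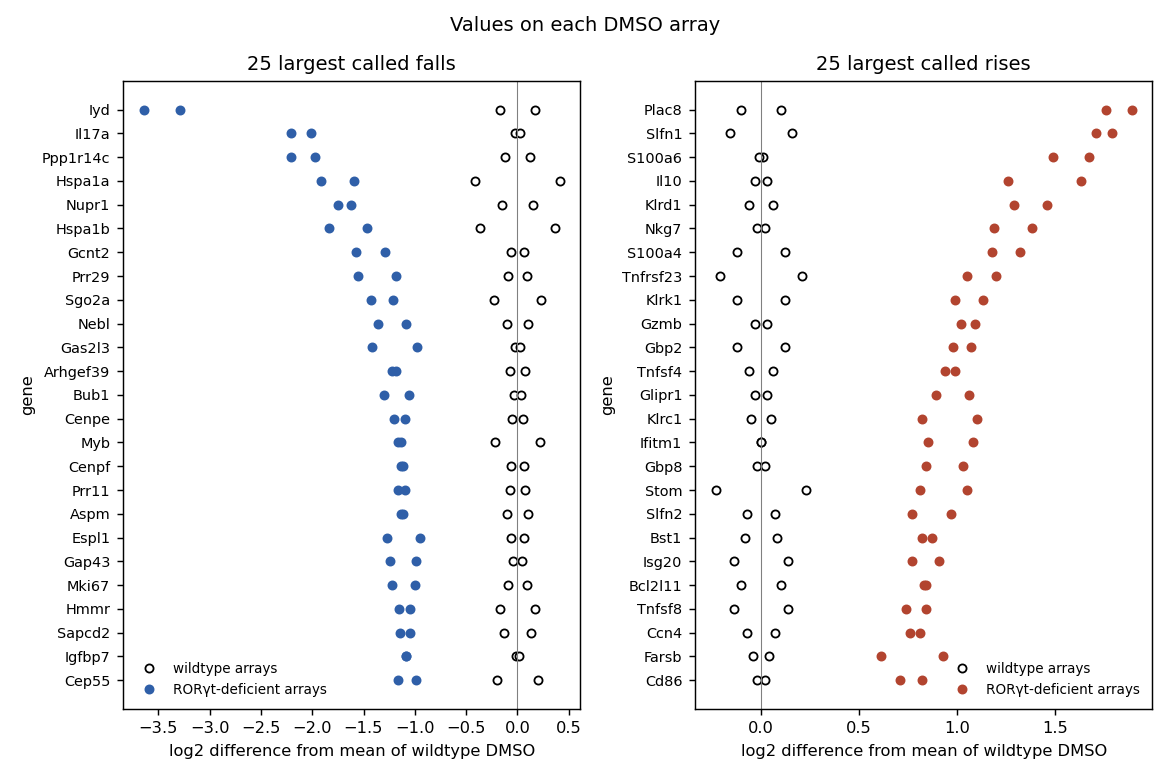
Each row is a gene and each circle 1 array, on the log2 scale with the wildtype DMSO mean at 0 (open, wildtype; filled, RORγt-deficient). The left panel holds the 25 largest called falls and the right panel the 25 largest called rises, and in every row the filled circles lie on one side of the open ones.

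Mitosis genes made up 33.6% of the called falls. Of 85 measured genes of the 3 mitosis lists, 47 fell (55.3%, against 0.77% of all genes), none rose, and the median was -0.76. These lists, too, were chosen with earlier results known, so the share is a description and not a test. Kinesin, spindle and cytokinesis genes had 21 of 29 members called, with a median of -0.88, mitotic kinases and checkpoint genes 15 of 25, with a median of -0.78, and kinetochore and centromere genes 11 of 31, with a median of -0.57.

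Bub1, a kinase of the spindle checkpoint, read -0.03 and 0.03 on the wildtype arrays and -1.06 and -1.30 on the deficient arrays (-1.18 ± 0.14). Espl1, the protease separase that frees sister chromatids, read -0.06 and 0.06 against -1.27 and -0.95 (-1.11 ± 0.15). Cdc20, the activator of the anaphase-promoting complex, read -0.07 and 0.07 against -0.86 and -0.80 (-0.83 ± 0.10). The kinase gene Aurka fell by 0.87 ± 0.12, although its other probe set was at 0.01, and the checkpoint kinase Bub1b fell by 0.82 ± 0.11.

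Cenpe, the kinetochore motor, had the smallest adjusted p of the mitosis genes, at -0.05 and 0.05 against -1.20 and -1.10 (-1.15 ± 0.11, adjusted p = 0.0015 by limma). Sgo2a, which protects centromeric cohesion, read -0.23 and 0.23 against -1.21 and -1.43 (-1.32 ± 0.20). Cenpf fell by 1.13 ± 0.12 and Ndc80, the microtubule-binding core of the kinetochore, fell by 0.97 ± 0.12. Among the spindle genes, Aspm fell by 1.12 ± 0.12, the proliferation marker Mki67 fell by 1.11 ± 0.14, the cytokinesis scaffold Anln fell by 1.04 ± 0.14 and the kinesin Kif20a fell by 1.02 ± 0.13. On the deficient arrays Mki67 read -1.0 and -1.22, below both wildtype arrays at -0.09 and 0.09.

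The wildtype DMSO arrays were not equal in these genes. Their medians over the 85 genes were -0.11 and 0.11, and 72 of the 85 were lower on the first array than on the second, while the deficient arrays were at -0.73 and -0.76. Without the second wildtype array 1 of the genes was called, without the first 19, without the first deficient array 12 and without the second 6, and the medians were -0.65, -0.88, -0.76 and -0.73. After quantile normalisation, which gives the wildtype DMSO pair a wider spread, none was called, with a median of -0.59. In bulk RNA, fewer cells of a type and less RNA per cell cannot be told apart.

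**Figure D3:**
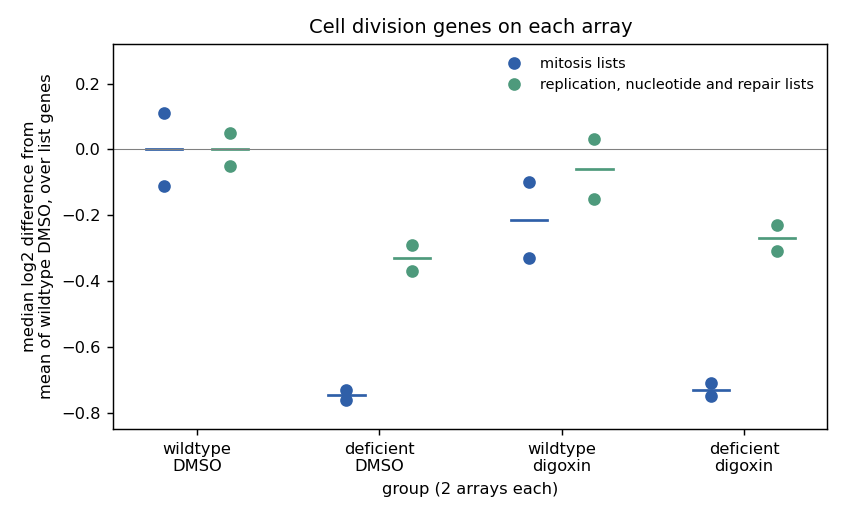
Each circle is the median, over the genes of the lists, of the centred log2 value on 1 array, and bars are the mean of the 2 arrays of a group. The deficient DMSO arrays read -0.73 and -0.76 for the mitosis lists and -0.29 and -0.37 for the replication, nucleotide and repair lists.

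Cyclins and their kinases had 7 falls and 1 rise among 23 measured genes, with a median of -0.18 (over all genes 0.77% fell and 0.28% rose). Ccnb2, a mitotic cyclin, read -0.13 and 0.13 on the wildtype arrays and -1.08 and -1.01 on the deficient arrays (-1.05 ± 0.12), its kinase Cdk1 fell by 0.79 ± 0.11 and Ccna2 fell by 0.88 ± 0.14. The single rise was Ccng1, an atypical cyclin and p53 target. DNA replication genes had 5 falls among 47, with a median of -0.38. Cdc45, a component of the replicative helicase, fell by 0.83 ± 0.12, although its other probe set was at -0.13. The ligase Lig1 fell by 0.72 ± 0.13, and the polymerase genes Pole, Pola1 and Pold1 by 0.70, 0.66 and 0.62. DNA repair genes had 5 falls among 40, with a median of -0.25, led by the helicase gene Blm (-0.72 ± 0.12). Nucleotide synthesis genes had none called among 21, with a median of -0.23. Of the E2F, MYB and FOXM1 regulators, 2 of 18 fell, Myb (-1.15 ± 0.19) and E2f7 (-0.67 ± 0.13).

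The 25 largest falls held further genes of cell division, of which Hmmr and Cep55 are already counted in the kinesin, spindle and cytokinesis list. Gas2l3, which links actin to microtubules in cytokinesis, read -0.02 and 0.02 on the wildtype arrays and -0.98 and -1.42 on the deficient arrays (-1.20 ± 0.16). Prr11 read -0.07 and 0.07 against -1.10 and -1.16 (-1.13 ± 0.11). Hmmr, a hyaluronan receptor that also acts on the spindle, fell by 1.10 ± 0.15, and the midbody protein gene Cep55 fell by 1.08 ± 0.16. Sapcd2, a regulator of spindle orientation, fell by 1.10 ± 0.12, although its 2 other probe sets were at -0.25 and 0.05.

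A further 4 genes changed at least 2-fold without being called and are named after their values were seen. The mitotic kinase Melk was at -1.03 ± 0.22, Brca1 at -1.03 ± 0.24 and Depdc1a at -1.27 ± 0.31. Sdc4 was at 1.05 ± 0.56, with 0.42 on one deficient array and 1.68 on the other.

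**Figure D4:**
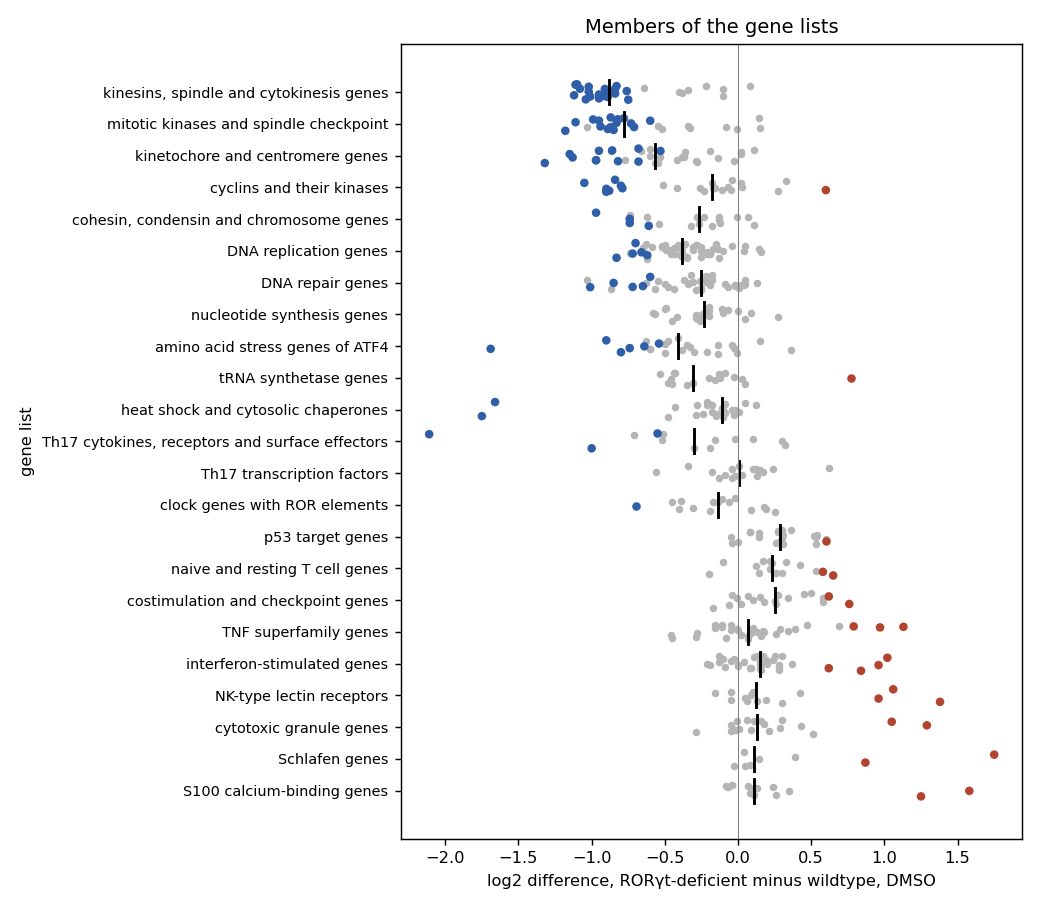
Each point is a measured gene of the named list, placed by its log2 difference of RORγt-deficient from wildtype cells in DMSO (red, called rise; blue, called fall; grey, not called; vertical shift only separates points), and black bars are list medians. The medians of the kinesin, checkpoint and kinetochore lists were -0.88, -0.78 and -0.57.

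Of 25 measured targets of ATF4, the factor induced when amino acids run short, 6 fell (against 0.77% of all genes) and none rose, with a median of -0.41. With 1 DMSO array left out, 1 or 2 of them were called. Nupr1, a stress-induced chromatin protein, read 0.15 and -0.15 on the wildtype arrays and -1.62 and -1.75 on the deficient arrays, a 3.22-fold fall (-1.69 ± 0.14, adjusted p = 0.000669 by limma). Chac1, which degrades glutathione, read -0.03 and 0.03 against -1.03 and -0.76 (-0.90 ± 0.13), and Asns, asparagine synthetase, read 0.06 and -0.06 against -0.85 and -0.75 (-0.80 ± 0.10). The kinase-like Trib3 fell by 0.74 ± 0.11, and Shmt2, an enzyme of mitochondrial folate metabolism, fell by 0.64 ± 0.10.

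The amino acid transporter list had 1 fall among 17, Slc7a5, the large neutral amino acid carrier, at 0.11 and -0.11 against -0.80 and -0.78 (-0.79 ± 0.11). Its partner Slc3a2 was at -0.51 ± 0.10 (adjusted p = 0.0515 by limma). Of 19 tRNA synthetase genes 16 were below 0 and the median was -0.31, but the one called was the rise of Farsb (0.77 ± 0.13), whose 3 other probe sets ranged from -0.38 to -0.26. With the mean of its probe sets Farsb was at -0.06. None of 26 genes of the unfolded protein response was called, with a median of -0.12.

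The heat shock list had 2 falls among 29, the near-identical and neighbouring copies Hspa1a and Hspa1b, whose signals may not be separable on an array. Hspa1a read 0.41 and -0.41 on the wildtype arrays and -1.59 and -1.91 on the deficient arrays (-1.75 ± 0.26), and Hspa1b read 0.37 and -0.37 against -1.47 and -1.84 (-1.66 ± 0.24). The wildtype arrays differed from each other more in these genes than in any other of the 25 largest falls. The median of the list was -0.11.

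The rises included genes of cytotoxic granules and NK-type lectin receptors. Over all genes 0.28% rose, the share to set beside each count of rises below. Nkg7, a granule membrane protein, read 0.02 and -0.02 on the wildtype arrays and 1.19 and 1.38 on the deficient arrays (1.29 ± 0.11, adjusted p = 0.000781 by limma). Gzmb, the protease granzyme B, read 0.03 and -0.03 against 1.02 and 1.09 (1.05 ± 0.11). These were the 2 called of 18 granule genes, whose median was 0.13.

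Of 14 measured lectin receptor genes 3 rose, with a median of 0.12. Klrd1, the CD94 chain, read -0.06 and 0.06 against 1.46 and 1.29 (1.38 ± 0.11), Klrk1, the receptor NKG2D, read -0.12 and 0.12 against 0.99 and 1.13 (1.06 ± 0.16), and Klrc1, the inhibitory partner of CD94, read -0.05 and 0.05 against 1.10 and 0.82 (0.96 ± 0.18). Klrd1 and Klrk1 are neighbours among measured genes. The NK marker list had Klrd1 and Klrc1 called among 9, both counted above as lectin receptors, with a median of 0.24. Its mean values, which include these genes, were 0.01 and -0.01 on the wildtype arrays and 0.37 and 0.38 on the deficient arrays. Its receptor Ncr1 was at 0.00 ± 0.14. The CD8 T cell marker list had Klrk1, also counted above, called among 7, with a median of 0.23. Its mean values were -0.02 and 0.02 on the wildtype arrays and 0.23 and 0.45 on the deficient arrays. Its defining genes Cd8a (0.22 ± 0.13) and Cd8b1 (0.23 ± 0.13) were not called. The part of other cell types in these rises was not tested.

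Plac8, a small cysteine-rich protein, had the largest rise, at -0.10 and 0.10 on the wildtype arrays and 1.89 and 1.76 on the deficient arrays, or 3.54-fold (1.82 ± 0.12, adjusted p = 0.000197 by limma). The Schlafen gene Slfn1 read 0.16 and -0.16 against 1.71 and 1.79 (1.75 ± 0.13), although its other probe set was at -0.13, and its neighbour Slfn2, known for keeping T cells quiescent, rose by 0.87 ± 0.11. These were the 2 called of 8 Schlafen genes, with a median of 0.11. Il10, the anti-inflammatory cytokine, read 0.03 and -0.03 against 1.63 and 1.26 (1.45 ± 0.14, adjusted p = 0.00226 by limma), the single call among 12 genes of Il10 and its regulators.

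Of 14 S100 calcium-binding genes 2 rose, with a median of 0.11. S100a6 read 0.01 and -0.01 against 1.67 and 1.49 (1.58 ± 0.14), and S100a4 read -0.12 and 0.12 against 1.32 and 1.18 (1.25 ± 0.17). Both lie near the gene encoding RORγt in the RefSeq order, at 45 and 47 measured genes before it. Within 100 measured genes on either side 5 of 200 were called (2.5%, against 1.05% of all genes), S100a4, S100a6, Ecm1 and Txnip as rises and Cks1b as a fall (Ecm1 named after its values were seen), and the median of the 200 was 0.02. Whether alleles linked to the targeted locus have a part in these values was not tested.

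Signalling molecules of the cell surface followed. In the TNF superfamily 3 of 31 genes rose, with a median of 0.07. Tnfsf4, the ligand OX40L, read -0.06 and 0.06 against 0.94 and 0.99 (0.97 ± 0.10), Tnfrsf23, a decoy receptor for TRAIL, rose by 1.13 ± 0.17, and Tnfsf8, the ligand of CD30, rose by 0.79 ± 0.15. Of 19 costimulation and checkpoint genes Cd86 (0.76 ± 0.10) and Cd96 (0.62 ± 0.12) rose, with a median of 0.25. The interleukin 12 receptor chain Il12rb2, which serves the Th1 fate, rose by 0.72 ± 0.13 as the only call among 13 Th1 genes, while Tbx21 was at 0.32 ± 0.10 and Ifng at -0.06 ± 0.19. The homing receptors Gpr15 (0.73 ± 0.12) and Ccr7 (0.58 ± 0.10) rose among 32 chemokine and homing genes.

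Interferon-stimulated genes had 4 rises (against 0.28% of all genes) and no fall among 37, with a median of 0.15. The GTPase Gbp2 read -0.12 and 0.12 against 1.07 and 0.98 (1.02 ± 0.11), Ifitm1 read 0.00 and 0.00 against 1.08 and 0.85 (0.96 ± 0.11), Isg20 rose by 0.84 ± 0.13 and Zbp1 by 0.62 ± 0.12.

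Genes of resting T cells and of growth restraint were mostly above 0 with few calls. Ccr7 and Igfbp4 (0.65 ± 0.11) were the 2 called of 15 naive T cell genes, with a median of 0.23. Txnip, an inhibitor of thioredoxin and of glucose uptake, rose by 0.75 ± 0.11 as the only call among 22 quiescence factors, with a median of 0.20. Of 23 p53 targets 20 were above 0, with a median of 0.29, and Ccng1 alone was called (0.60 ± 0.11), with Perp just outside the threshold at 0.54 ± 0.11 (adjusted p = 0.0506 by limma). Bcl2l11, the death-promoting protein BIM, read 0.10 and -0.10 against 0.83 and 0.84 (0.83 ± 0.11), the only call among 25 apoptosis genes.

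Several of the 25 largest rises belong to none of these groups. Glipr1, a secreted p53-responsive protein, read 0.03 and -0.03 against 0.89 and 1.06 (0.97 ± 0.11), while its other probe set was at -0.06. Bst1, the ectoenzyme CD157, read 0.08 and -0.08 against 0.87 and 0.82 (0.85 ± 0.15), and Ccn4, a matricellular protein, read 0.07 and -0.07 against 0.81 and 0.76 (0.78 ± 0.11). Stom, a membrane scaffold protein, read -0.23 and 0.23 against 1.05 and 0.81 (0.93 ± 0.18). Gbp8, a guanylate-binding protein of a family with similar members, rose by 0.93 ± 0.18.

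Called genes also lay beside each other in the RefSeq order. Among pairs of called genes within 10 places of each other in the order of measured genes, 18 of 24 changed in the same direction. With 140 falls among the 191 called genes, many pairs share a direction whatever their place. No expected number of pairs was worked out, so these counts do not show clustering. Of the pairs, 7 had no measured gene between them. These 7 were Ppp1r14c with Iyd, Slfn2 with Slfn1, Hspa1b with Hspa1a, Gsn with Stom, Oip5 with Nusap1, Klrd1 with Klrk1 and Furin with Blm, of which Gsn, Oip5 and Nusap1 are named after their values were seen. The neighbours Bub1 (-1.18) and Bcl2l11 (0.83), with 1 measured gene between them, changed in opposite directions.

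Other probe sets of the called genes mostly had the same sign. The rises had 42 further probe sets, of which 37 were above 0 and 8 were called in the fit over every probe set, and the falls had 146, of which 126 were below 0 and 44 were called. By the recovered band of the lowest array, 35 rises and 98 falls lay between 4 and 8 on the log2 scale and 16 rises and 40 falls at 8 or above. In the band from 2 to 4, which held 30.7% of all genes, 2 genes were called, the falls of Arhgap19 and Pkib, both named after their values were seen.

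In 16 of the 47 lists no gene was called, and their medians ranged from -0.23 to 0.09. They included the regulatory T cell, Th2, follicular helper, STAT and SOCS, TGF-beta, T cell receptor signalling, glycolysis, hypoxia and sterol synthesis lists. Foxp3, the regulatory T cell factor, was at 0.08 ± 0.15, Gata3, the Th2 factor, at 0.24 ± 0.14, Il4 at 0.09 ± 0.12 and Il2 at -0.50 ± 0.11 (adjusted p = 0.0693 by limma). Of the CD4 T cell identity markers 0 of 8 were called, with Cd4 at 0.17 ± 0.10 and in the highest band of signal. The B cell, myeloid, gamma delta, innate lymphoid, erythroid and basophil marker lists had 0 genes called. In the erythroid list the globin gene Hba-a2, in the lowest band, differed between replicates (0.79 ± 0.72). It read 0.03 on the first deficient DMSO array and 1.54 on the second. Under digoxin it read -0.56 and 1.71 in wildtype and -0.20 and 1.43 in deficient cells. The other erythroid genes, Hba-a1 (-0.09 ± 0.15) and Alas2 (0.29 ± 0.18), were also in the lowest band. The source of this signal was not tested. Over all genes, unadjusted p-values were under 0.05 for 1879.

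The arrays with digoxin give the same genotype contrast on 4 arrays whose means do not enter the DMSO difference. Their spread does enter its standard errors and calls, since all 8 arrays were fitted together. The sources do not say whether their cells came from other mice or cultures, so the agreement below may not be independent. Of the 51 rises in DMSO 48 were above 0 there (94.1%, against 52.4% of all genes), and of the 140 falls 138 were below 0 (98.6%, against 47.6%). The exceptions were Gpr15, Ifitm1 and Moxd1 among the rises and Adh4 and Pcbp3 among the falls, of which Moxd1, Adh4 and Pcbp3 are named after their values were seen. The digoxin groups were apart in the same direction for 41 of the rises (80.4%, against 17.4% of all genes) and 130 of the falls (92.9%, against 13.6%). Medians were 0.35 for the rises and -0.49 for the falls, against 0.75 and -0.85 in DMSO, where the values had chosen the genes. In a fit of the 4 DMSO arrays alone, which uses nothing of the digoxin arrays, 24 genes rose and 71 fell. Of these rises 22 were above 0 under digoxin and 18 had groups apart (75%), and of these falls 71 were below 0 and 67 had groups apart (94.4%), a reading added after seeing the data. Under digoxin 1 gene was called (0.0055%), Il17a, and 1003 had an unadjusted p under 0.05 by limma.

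Il17a read -2.35 and -2.44 on the wildtype digoxin arrays and -3.87 and -4.12 on the deficient ones (-1.60 ± 0.12, adjusted p = 0.00299 by limma). S100a6 read 0.51 and 0.12 against 1.56 and 1.46, and S100a4 read -0.63 and -0.20 against 1.13 and 0.76, so neither gene's groups overlapped. Iyd read -2.59 and -3.09 against -3.80 and -3.83 (-0.97 ± 0.19). Il10 read 1.46 and 1.20 against 1.46 and 1.41, with overlapping groups. The mitosis lists had a median of -0.49, with array medians of -0.10 and -0.33 in wildtype and -0.75 and -0.71 in deficient cells.

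The difference between the contrasts was tested for each gene, and limma called 0 of 18193, with 562 at an unadjusted p under 0.05. Its nearest value was that of Iyd, at 2.49 ± 0.26 (adjusted p = 0.0521 by limma). For Plac8 the difference was -1.37 ± 0.17 and for Ppp1r14c 1.31 ± 0.20, both with adjusted p over the threshold, at 0.116 and 0.221 by limma. No gene was therefore shown to respond to RORγt loss in DMSO alone.

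**Figure D5:**
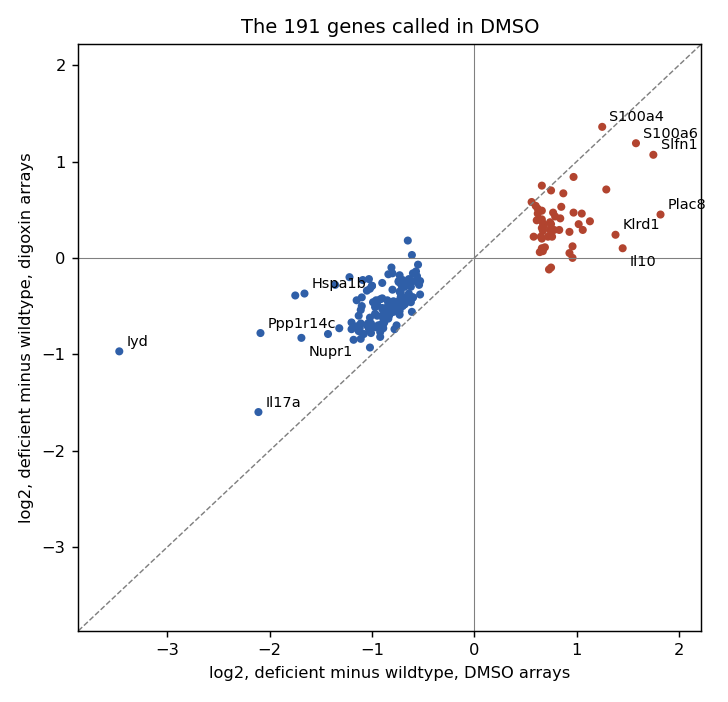
Each point is 1 of the 191 genes called in DMSO, with its log2 difference of RORγt-deficient from wildtype cells on the DMSO arrays (x axis) and on the digoxin arrays (y axis), red for rises and blue for falls. The dashed line marks equal values, and 138 of 140 falls lie below 0 on the y axis and 48 of 51 rises above it.

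Single arrays set how many genes were called. Without the first or the second wildtype DMSO array 47 and 17 genes were called, and without the first or the second deficient DMSO array 56 and 28. In each of these fits the lone array was assumed to vary like the other groups. In all 4 of them 14 genes were called, the rises of Plac8, Slfn1, S100a6, Il10, Klrd1, Nkg7, Gbp2 and Tnfsf4 and the falls of Iyd, Il17a, Ppp1r14c, Nupr1, Cenpe and Prr11. Every other gene named as risen or fallen lost its call in at least 1 of them.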

How the data were processed

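Total RNA of 8 samples was measured on 8 arrays. The deposited log2 values were made by RMA per the submitters' processing notes and analysed in GeneSpring GX 11.5 per the series' design text. In the deposited table each probe set is expressed relative to the mean of the 2 wildtype DMSO arrays (their sum is 0 within 1e-06), a step no label records, so no absolute level is known. Bands of signal were recovered from the precision of the deposited numbers.

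Of 45101 probe sets, 34945 had 1 gene symbol and were no control, and 1 probe set was kept per gene by identifier suffix. Group means were fitted over all 8 arrays in limma 3.58.1 (R 4.3.3) and tested by moderated statistics, two-sided, with Benjamini-Hochberg adjustment. The fit was tested on simulated data. The number of arrays limits the precision.

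Genes were named as the 25 largest called rises and falls, up to 5 members per list by adjusted p, and fixed defining genes. The members and lists were chosen with earlier results of these data known. Alternatives covered samples, weights, normalisation, probe sets, signal filter, replicate block and left-out arrays.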

Additional observations from a re-analysis of the deposited data

Results flagged for a closer look

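Probe sets with no single gene symbol were not part of the gene comparison. In the fit over every probe set, 26 of these 10092 were called in DMSO, 13 higher and 13 lower, or 0.258% against 0.611% of all 45037 probe sets. Their differences ranged from -1.84 to 1.66, and they are not named here.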

How the results depend on the processing

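The count of 191 genes in DMSO moved to 95 when the fit held only the 4 DMSO arrays and to 3 (Il17a, Iyd and Nkg7) after quantile normalisation. That step gives all arrays one distribution. The SD over genes was 0.09 on the wildtype DMSO arrays, which were centred on their own mean, and 0.17 to 0.28 on the others. Quantile normalisation thus widens the wildtype DMSO pair, and a call lost there may come from the step itself. Leaving out each of the 8 arrays gave 17 to 188. Other settings gave 181 to 249 genes, and the fit over every probe set called 275 of 45037 probe sets. Under digoxin the count of 1 became 2 with the mean of probe sets, 0 after quantile normalisation and 2 with the replicate block, and 0 to 2 with an array left out. For the difference the count of 0 became 1 with array weights, with the mean of probe sets and after quantile normalisation, and 0 to 1 with an array left out. The replicate block gave 181 genes in DMSO. Deviations of equal replicate numbers correlated at 0.32 to 0.45 among the deficient DMSO, wildtype digoxin and deficient digoxin groups. With the wildtype DMSO group they correlated at -0.24 to -0.14. Replicate numbers were therefore not shown to pair all the samples, and whether they mark a shared batch was not tested. Signs turned for Farsb (-0.06, mean of probe sets), Foxp3 (-0.05 to 0.20 over the left-out arrays) and Ifng (-0.33 to 0.22), and the cause was not tested.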
